A study of Mus musculus with 9 samples.

Results

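The genes examined here are 51 genes of DNA replication and entry into S phase. Their chromatin was read in the peak lists of 9 CUT&Tag libraries made from sorted mouse marrow cells. In CUT&Tag a transposase is brought to an antibody on chromatin and cuts there, so that sequenced fragments gather at the target and are called as peaks. The genes are listed by function, by a rule that uses no measured value, and all 51 were found among the 21887 protein-coding genes of the RefSeq annotation on chromosomes 1 to 19, X and Y. A gene was said to carry a peak when a peak of a list overlapped a window of 1 kb on either side of either annotated end of the gene (a gene-end peak).

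The mice were C57BL/6 and 12 weeks old, and all carried floxed Dek alleles (Dekfl/fl). Control mice (fl) had no Cre, and conditional knockout mice (cKO) had Tie2-Cre as well, so that the controls shared the floxed allele but not the recombinase. Tie2-Cre is driven by an endothelial promoter that is also active in blood-forming cells, so the deletion is not limited to the cells that were sorted. The 3 DEK libraries, for a protein that binds chromatin, were from fl haematopoietic stem cells (HSC, sorted as Lin-Sca-1+c-Kit+CD48-CD150+, about 20000 cells). H3K9ac was profiled in fl and in cKO HSC. H3K27ac and H3K4me3 were profiled in fl and in cKO LSK cells, the wider stem and progenitor gate Lin-Sca-1+c-Kit+ (about 50000 cells). Each of these 3 marks had 1 library per genotype. No difference between fl and cKO below therefore has a replicate check or a test, and the labels do not say whether the libraries came from separate mice.

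Replication starts when the origin recognition complex (ORC), with Cdc6 and Cdt1, loads the ring-shaped MCM helicase on DNA, and Cdc45 and GINS then join the helicase so that it unwinds the strands. Primase and the DNA polymerases copy the strands, held in place by the PCNA clamp that the RFC complex loads, while RPA covers bare single strands. Many of these genes are switched on late in G1 by E2F factors, which cyclin E and CDK2 help to free from the retinoblastoma protein, and blood stem cells are mostly out of cycle, whereas the LSK gate also holds progenitors that divide. H3K4me3 marks the starts of genes that are active or ready to be, while H3K27ac and H3K9ac are acetylation marks of active promoters and enhancers.

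The fl and cKO lists held 10494 and 16331 peaks for H3K27ac, 10514 and 10159 for H3K4me3, and 2172 and 3431 for H3K9ac. The DEK lists held 2054, 2111 and 6147 usable peaks in replicates 1 to 3. Read depth is unknown, since the lists carry no read counts, and the unequal lengths of the H3K27ac lists accompany every difference in H3K27ac described below. Their part in those differences was not tested beyond trimming the longer list to equal length. Of 13 stem and progenitor markers, 10 carried H3K4me3 in fl and 9 in cKO (Kit, Cd34, Flt3, Tal1, Gata2, Mecom, Meis1 and Hoxa9 in both). H3K27ac lay at 1 of them in fl (Flt3) and at 8 in cKO. In the H3K4me3 lists 0 of 4 B cell and 0 of 4 endothelial markers had a gene-end peak in either genotype, and 1 of 4 T cell markers (Cd3d) had one in both. Of 6 erythroid and megakaryocyte markers, 2 had H3K4me3 in fl (Klf1 and Epor) and 3 in cKO (Hbb-bt as well). The myeloid marker S100a8 (1 of 4) had it in cKO alone, and the stromal marker Pdgfrb (1 of 4) in fl alone. H3K27ac lay at an end of 1 of these markers of other cell types in fl (Klf1) and of 5 in cKO (Klf1, Cd4, Cd79a, Kdr and Cxcl12). With peaks inside the span counted, H3K4me3 was added at Pax5 (B cell) in both genotypes and at Itga2b (megakaryocyte) in cKO. H3K27ac was then added at Itga2b, Tek (endothelial) and Lepr (stromal) in both, and at Pax5 in cKO. Of the stem markers, H3K4me3 was added at Hlf in fl, and H3K27ac at Mecom in fl and Hoxa9 in cKO. The part of other cell types in the results below was not tested. The Dek gene itself had an H3K4me3 peak in both lists, and peaks do not show which part of the gene was deleted, so they do not check the deletion.

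The promoters of 6 genes are printed first. They belong to the genes placed highest in the cKO H3K27ac list within the MCM, ORC, polymerase and E2F groups, and then over all roles, among those with at least 100 bases before the start outside any annotated gene. They run 5′ to 3′ on the strand of the gene, from RefSeq for GRCm38.p6 (the mm10 coordinates), and they stop at the first annotated gene. Capitals mark matches to the E2F motif TTTNNCGC or to the NF-Y motif CCAAT on either strand.
Mcm6 (chr1:128359706-128359955, minus strand): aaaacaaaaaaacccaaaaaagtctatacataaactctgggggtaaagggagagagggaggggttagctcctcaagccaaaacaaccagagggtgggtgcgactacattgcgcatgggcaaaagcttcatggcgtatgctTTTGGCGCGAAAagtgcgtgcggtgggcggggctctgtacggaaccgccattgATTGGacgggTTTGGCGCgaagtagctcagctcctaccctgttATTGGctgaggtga
Orc6 (chr8:85299518-85299631, plus strand): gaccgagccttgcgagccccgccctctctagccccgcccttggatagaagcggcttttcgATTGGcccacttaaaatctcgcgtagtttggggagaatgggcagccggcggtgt
Pold3 (chr7:100121503-100121752, minus strand): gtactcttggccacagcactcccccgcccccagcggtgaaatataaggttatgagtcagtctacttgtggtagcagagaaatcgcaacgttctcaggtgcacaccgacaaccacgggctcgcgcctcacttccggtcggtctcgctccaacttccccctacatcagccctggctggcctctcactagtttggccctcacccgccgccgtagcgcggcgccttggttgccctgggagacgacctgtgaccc
Cdc25a (chr9:109875329-109875517, plus strand): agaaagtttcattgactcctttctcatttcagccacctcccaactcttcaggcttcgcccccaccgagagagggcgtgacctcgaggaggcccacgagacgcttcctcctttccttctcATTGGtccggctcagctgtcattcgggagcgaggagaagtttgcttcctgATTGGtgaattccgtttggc
Rpa2 (chr4:132768110-132768359, plus strand): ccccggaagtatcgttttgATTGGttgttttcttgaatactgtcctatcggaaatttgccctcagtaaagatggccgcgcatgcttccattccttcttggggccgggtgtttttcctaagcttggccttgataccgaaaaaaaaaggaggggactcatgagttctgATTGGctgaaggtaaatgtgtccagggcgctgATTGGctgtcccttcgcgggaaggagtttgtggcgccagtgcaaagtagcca
Pold2 (chr11:5878257-5878506, minus strand): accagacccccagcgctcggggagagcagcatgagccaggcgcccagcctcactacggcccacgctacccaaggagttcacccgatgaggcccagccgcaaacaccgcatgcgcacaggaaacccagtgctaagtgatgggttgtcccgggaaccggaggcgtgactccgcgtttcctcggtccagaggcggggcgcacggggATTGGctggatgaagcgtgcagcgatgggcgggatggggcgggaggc
Mcm6 held 3 E2F matches, of which 2 overlap on opposite strands, and Rpa2 held 3 NF-Y matches. The Pold3 stretch held neither motif. The Cdc25a run ends 61 bases before the listed start, and an E2F match of that promoter begins in its last printed bases and runs past them, so those bases are in lower case.

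H3K4me3 lay at most of the genes in both genotypes. In the fl list 46 of the 51 (90.2%) carried a gene-end peak, against 43.8% of all protein-coding genes, and in the cKO list 42 (82.4%) did, against 42.7%. The peak was present in both lists at 42 genes, in fl alone at 4 (all genes: 41.1% and 2.75%), and in cKO alone at 0 (all genes: 1.59%). The 4 fl-only genes were Mcm2, Gins1, Prim1 and Pole2, and 5 genes (Orc1, Orc4, Pold2, Rfc1 and Lig1) had no gene-end peak in either list (all genes: 54.6%).

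H3K27ac was less widely present. It lay at 25 genes (49.0%) in fl and at 32 (62.7%) in cKO, against 21.9% and 42.5% of all genes. Of the 51, 24 had the mark in both lists (all genes: 21.5%), 8 in cKO alone (15.7%, against 20.9% of all genes), 1 in fl alone (all genes: 0.384%) and 18 in neither (all genes: 57.2%). The 8 cKO-only genes were Orc3, Gins3, Pold1, Rfc2, Rpa2, Rrm1, E2f2 and Ccne1, spread over 7 of the 10 roles into which the genes were sorted, and the fl-only gene was Mcm7. With both lists trimmed to 10494 peaks by −log10 p, 5 genes (Orc3, Pold1, Rpa2, E2f2 and Ccne1) were cKO only and 4 (Mcm7, Orc6, Gins2 and Pola1) were fl only, against 11.0% and 1.93% of all genes. Among the 46 genes with H3K4me3 in fl, the share with H3K27ac in both lists was 50.0%, close to the 47.1% of all 9594 such genes. The share with H3K27ac in cKO alone was 17.4%, where all such genes had 33.4%, the share with it in fl alone 2.17% against 0.542%, and the share with none 30.4% against 19.0%. No test was made of these differences in share.

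**Figure D1:**
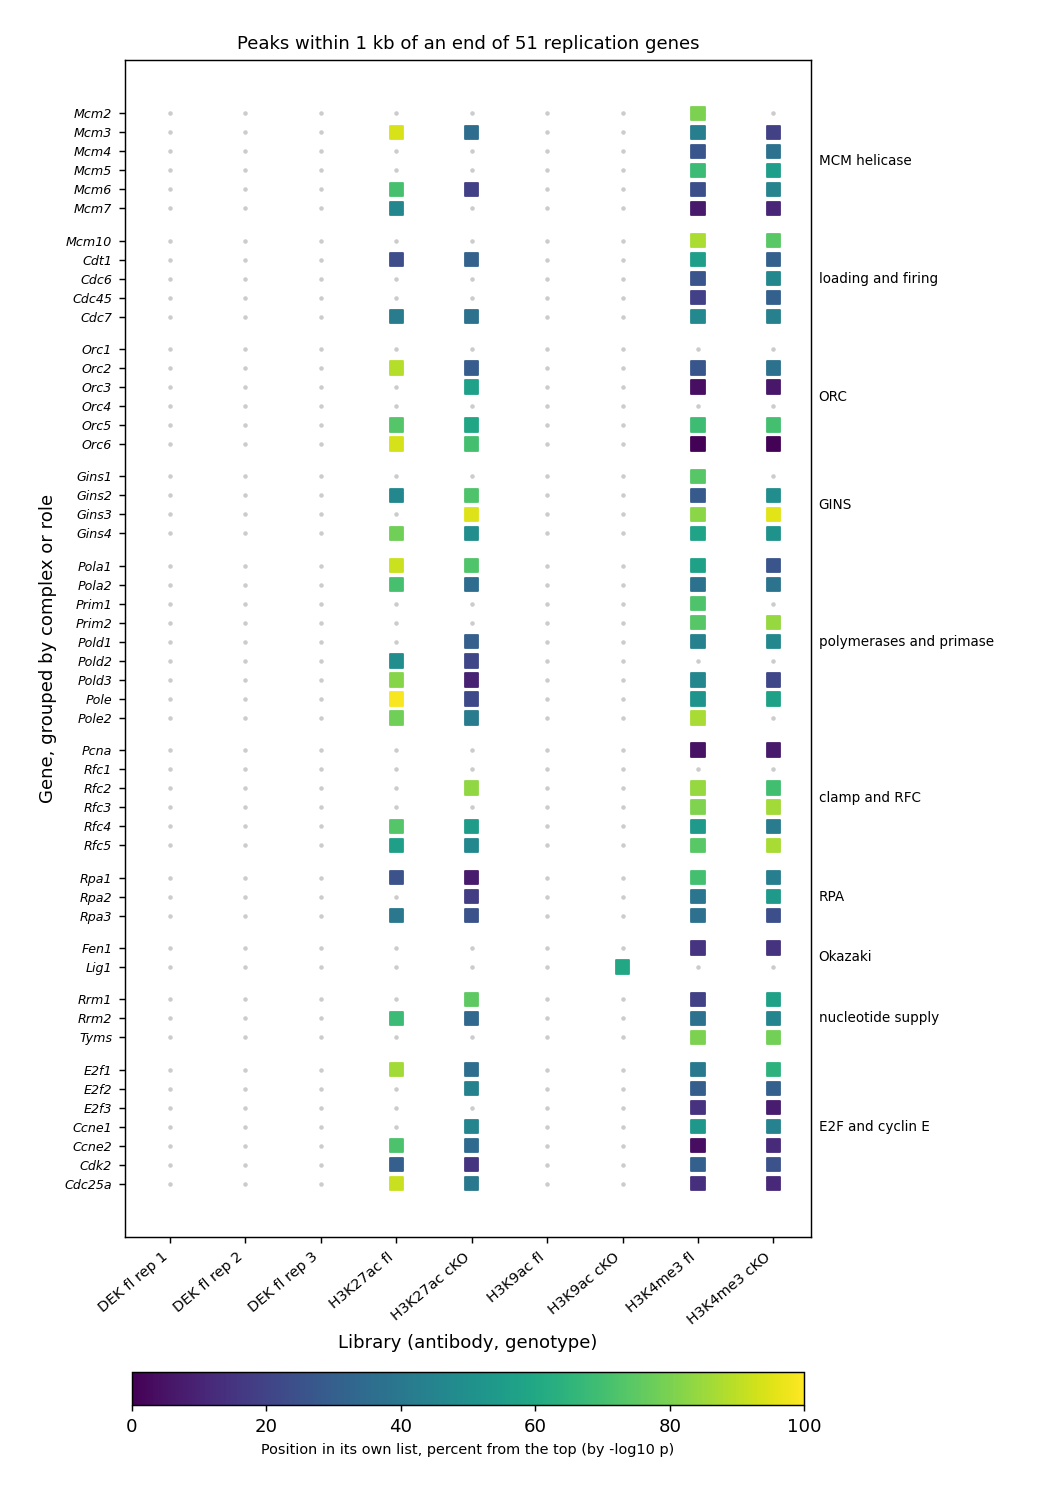
Gene-end peaks of the 51 genes (rows, grouped by complex or role) in the 9 libraries (columns). Each point is the strongest peak of that gene in that list, and its colour gives the position in that list as a percentage from the top by −log10 p. The 2 H3K4me3 columns are nearly full with 46 and 42 genes, the 2 H3K27ac columns hold 25 and 32, and the DEK columns are empty.

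DEK had a gene-end peak at 0 of the 51 genes in each of the 3 libraries, where 0.288%, 0.306% and 0.69% of all genes had one. Over the 3 libraries together 1.21% of all genes had one, and 0.064% had one in at least 2 libraries. With so few genes called, a count of 0 of 51 lies near the background. Within the gene spans, 4 of the 51 (7.84%) held a DEK peak in any library, against 12.9% of all genes. Prim2, which encodes the large primase subunit, held 1 in replicate 2 and 2 in replicate 3, at different places. The strongest of these, at chromosome 1 from 33631081 to 33631424, stood 5.50% from the top of the replicate 3 list with a fold enrichment of 11.7 (fold enrichments and q-values are the authors' own values for each peak). Orc5, an ORC subunit, held 2 in replicate 2, with folds of 7.19 and 4.97. Mcm3, a subunit of the helicase, held 1 in replicate 3 with a fold of 3.58. Pola1, the catalytic subunit of polymerase alpha, held 1 in replicate 3 with a fold of 5.37. No place inside these 4 genes was seen in more than 1 DEK library. Shares over whole spans, here and below, were not adjusted for gene length. Pola1 (327622 bp) and Prim2 (216001 bp) have the longest spans of the 51 genes, whereas Orc5 covers 63859 bp and Mcm3 17347 bp.

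H3K9ac in HSC was likewise almost missing from these genes. No gene carried it at an end in fl, where 0.658% of all genes did, and 1 carried it in cKO, where 1.06% did. That gene was Lig1, which encodes the ligase that seals Okazaki fragments. Its peak was 187 bp wide, had a −log10 q of 1.70 and a fold of 2.89, and stood 59.5% from the top of its list. With whole gene spans, 1 of the 51 genes had H3K9ac in fl and 3 in cKO, against 4.91% and 7.26% of all genes. Prim2 had an fl H3K9ac peak (33486691 to 33487053 on chromosome 1, fold 7.05) that overlapped a weak replicate 3 DEK peak at 33486783 to 33487037. The kinase gene Cdc7 and Orc4 each had a cKO peak with a fold of 2.89, the same as at Lig1 and in the same tie at the end of the list.

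The 6 genes of the MCM helicase all carried H3K4me3 in fl, and 5 did so in cKO. Mcm6 had the widest fl peak of all 51 genes at 2050 bp. In cKO that stretch was covered by a peak of 433 bp at the start and a separate weak peak of 386 bp, so the difference in width of −1617 bp came with a split of the region. Mcm7 was next at 1901 bp in fl and 1644 bp in cKO, standing 6.99% and 10.2% from the top of those lists. Mcm5 measured 1164 bp in fl and 585 bp in cKO. Mcm4 (1191 and 1124 bp) and Mcm3 (634 and 649 bp) differed little between the lists. Mcm2 had the narrowest peak of the complex, 372 bp in fl, with a −log10 q of 10.9 and 80.4% from the top, and none within 1 kb in cKO. The nearest cKO peak lay 3085 bp from an end of Mcm2.

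H3K27ac split the same complex. Mcm3 and Mcm6 had it in both genotypes, Mcm7 in fl alone, and Mcm2, Mcm4 and Mcm5 in neither. The Mcm3 peak measured 303 bp in fl and 487 bp in cKO, and stood 93.8% and 35.3% from the top of those lists. The Mcm6 peak measured 344 and 554 bp, at 70.4% and 19.0% from the top. Both were thus among the weaker fl peaks and in the upper part of the cKO list, as the shared peaks of all genes also were (medians 63.8% and 31.1%). The fl peak of Mcm7 ran from 138171021 to 138171375 on chromosome 5, was 355 bp wide, had a fold of 9.02 and stood 46.2% from the top. Its summit lay 90 bp into the gene from a second, internal listed start, and it fell outside a window of 500 bp. The nearest cKO H3K27ac peak lay 3238 bp from an end of the gene.

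Of the 5 loading and firing genes, all carried H3K4me3 in both lists. Cdc45, the helicase partner, had the widest fl peak of this group at 1481 bp (1377 bp in cKO). Mcm10, which binds the active helicase, had the narrowest at 638 bp (606 bp in cKO). Cdt1 and Cdc7 carried H3K27ac in both lists, and Cdc6, Cdc45 and Mcm10 in neither. Cdt1, the MCM loader, held the highest place of the 51 genes in the fl H3K27ac list, 23.5% from the top with a width of 636 bp, and stood 31.4% from the top in cKO with 784 bp. Of the 24 genes with a peak in both lists, Cdt1 and Gins2 had a lower place in cKO than in fl. Places in lists of unequal length do not show a change in the mark. Cdc7, the kinase that starts firing, had nearly equal widths of 463 bp in fl and 479 bp in cKO, at 41.7% and 37.4% from the top.

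The ORC genes held both the strongest H3K4me3 of the 51 and several with none at an annotated end. Orc6 stood 0.675% from the top of the fl list and 0.502% from the top of the cKO list, with widths of 1189 and 1269 bp. Orc3 followed within the complex at 3.65% and 6.19% (724 and 744 bp). Orc6 and Orc3 each have a neighbour gene with an end within 1 kb of the start (Vps35 and Rars2), so these peaks cannot be given to 1 gene of the pair. Orc2 measured 756 and 863 bp, and Orc5 had the narrowest peak of the complex at 554 bp in fl and 582 bp in cKO. All 4 were wider in cKO than in fl. Orc1 and Orc4 had H3K4me3 in both lists inside the annotated span, within 1 kb of a listed start, at 1062 and 988 bp for Orc1 and 1428 and 1476 bp for Orc4. Both genes thus had the mark at a start that lies over 1 kb from an annotated end.

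For H3K27ac, Orc2, Orc5 and Orc6 had a gene-end peak in both genotypes and Orc3 in cKO alone. The Orc2 peak measured 479 bp in fl and 522 bp in cKO, at 89.1% and 29.1% from the top. The Orc5 peak measured 347 and 408 bp, at 73.2% and 59.3%. Orc6, first of the 51 for H3K4me3, was near the bottom of the fl H3K27ac list at 93.7% (441 bp) and at 70.3% in cKO (558 bp). At Orc3 the cKO peak was 425 bp wide with a fold of 10.8 and stood 56.5% from the top, and the nearest fl peak lay 72252 bp away. Orc4 had H3K27ac at its listed start in both lists (465 and 507 bp), and Orc1 had none there.

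GINS, a complex of 4 small subunits, had narrow H3K4me3 peaks with a median of 483.5 bp in fl. Gins2 had the widest at 917 bp in fl and 956 bp in cKO. Gins1 had the narrowest at 418 bp in fl, 73.5% from the top with a −log10 q of 13.4, and none in cKO, where the nearest peak lay 4657 bp away. Gins2 and Gins4 carried H3K27ac in both lists and Gins3 in cKO alone. The Gins2 peak measured 454 and 676 bp, at 46.7% from the top in fl and 71.9% in cKO. The Gins3 peak was at the weak end of the cKO list, 303 bp wide with a fold of 6.14 and 94.7% from the top, and the H3K4me3 peaks of Gins3 stood 82.7% and 95.4% from the top.

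Of the 9 polymerase and primase genes, 8 carried H3K4me3 in fl and 6 in cKO. Pole, the catalytic subunit of polymerase epsilon, had the widest fl peak of the group at 1188 bp (1172 bp in cKO). Prim1, the catalytic primase subunit, had the narrowest at 370 bp, 72.1% from the top with a −log10 q of 14.0, and the nearest cKO peak lay 5291 bp away. Pole2, the second epsilon subunit, had 479 bp in fl at 86.9% from the top, and the nearest cKO peak lay 3659 bp away. These 2 genes, Mcm2 and Gins1 had fl peaks between 370 and 479 bp wide, against a median of 783.5 bp (638 to 994, 95% order-statistic interval) over the 46 genes. The 4 lay between 72.1% and 86.9% from the top of the fl list.

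H3K27ac was shared at 6 of the 9, Pola1, Pola2, Pold2, Pold3, Pole and Pole2. Pold3, an accessory subunit of polymerase delta, stood 81.8% from the top of the fl list with 462 bp and 9.05% from the top of the cKO list with 610 bp. Pole stood at 99.2% in fl, almost the last of that list, with 528 bp and a −log10 q of 3.61, and at 22.2% in cKO with 767 bp. Pold2, another delta subunit, measured 517 and 535 bp, at 49.0% and 21.3%. It had H3K27ac without H3K4me3, since the nearest fl H3K4me3 peak lay 34189 bp from the gene. Pole2 had an H3K27ac peak of 301 bp in fl and 451 bp in cKO, although its H3K4me3 peak was listed in fl alone. Pold1, the catalytic delta subunit, had H3K27ac in cKO alone, with a width of 381 bp, a fold of 11.1 and a place 29.8% from the top, and the nearest fl peak lay 4828 bp away.

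Pcna, the sliding clamp, had the widest H3K4me3 peak of the clamp and RFC genes in both lists (1240 and 1135 bp, at 4.77% and 6.98% from the top) and had no H3K27ac within 1 kb in either. Its nearest H3K27ac peaks lay 9788 bp away in fl and 1414 bp away in cKO. In the RFC clamp loader, Rfc2 had the narrowest fl peak of the group at 471 bp, with 741 bp in cKO. Rfc3 measured 539 and 495 bp, Rfc4 666 and 634 bp, and Rfc5 737 and 801 bp. Rfc1, the large subunit, had H3K4me3 (652 and 585 bp) and H3K27ac (310 and 503 bp) in both lists inside its annotated span at a listed start. Rfc4 and Rfc5 carried gene-end H3K27ac in both lists, and Rfc3 in neither. Rfc2 carried it in cKO alone, with a width of 303 bp, a fold of 7.50 and a place 83.6% from the top, and the nearest fl peak was 30249 bp away.

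RPA, the single-strand binding complex, had H3K4me3 at all 3 genes in both lists and held high places for H3K27ac. Rpa1 stood 25.1% from the top in fl with 389 bp and 7.30% from the top in cKO with 520 bp, the highest cKO place of the 51 genes. Rpa3 stood at 39.6% and 25.7% with 421 and 573 bp. Rpa1 and Rpa3 each have a neighbour gene with an end within 1 kb of the start (Smyd4 and Umad1). The peaks there cannot be given to either gene of the pair. Rpa2 had no fl peak within 105402 bp, whereas its cKO peak was 465 bp wide with a fold of 16.0 and stood 17.6% from the top, the highest place among the 8 cKO-only genes. Rpa2 also had the narrowest fl H3K4me3 peak of the complex at 582 bp (861 bp in cKO), and Rpa3 the widest at 932 bp (940 bp in cKO).

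The flap nuclease gene Fen1 had H3K4me3 of 1238 bp in fl and 1206 bp in cKO and no gene-end H3K27ac, with the nearest peaks 97150 bp away in fl and 15873 bp away in cKO. Lig1 had no gene-end H3K4me3. Inside its span, at a listed start, it had H3K4me3 in both lists (876 and 768 bp) and H3K27ac in cKO alone (525 bp, 34.2% from the top).

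Among the nucleotide supply genes, Rrm1 and Rrm2 encode the subunits of ribonucleotide reductase and Tyms encodes thymidylate synthase. Rrm2 had H3K27ac in both lists, 656 bp in fl and 697 bp in cKO, the widest fl peak of the 51 genes. Rrm1 had it in cKO alone, as a peak of 306 bp with a fold of 8.44 and a place 75.1% from the top, and the nearest fl peak lay 173402 bp away. Tyms had it in neither. For H3K4me3 width the reductase genes differed between genotypes in opposite directions, with Rrm1 at 629 bp in fl and 1007 bp in cKO, and Rrm2 at 1093 and 727 bp. Tyms measured 921 and 866 bp.

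The E2F, cyclin E and CDK2 genes all carried H3K4me3 in both lists, with a median fl width of 1012 bp. E2f3 had the widest fl peak at 1632 bp (1463 bp in cKO) and E2f1 the narrowest at 768 bp (1144 bp in cKO). Ccne2, a cyclin E gene, stood 3.33% from the top in fl and 12.0% in cKO, with 1369 and 1127 bp. The other cyclin E gene, Ccne1, measured 1298 and 950 bp. Cdc25a, the phosphatase that activates CDK2, measured 993 and 1014 bp.

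H3K27ac was shared at E2f1, Ccne2, Cdk2 and Cdc25a. Cdk2 was the strongest of these, at 29.9% from the top in fl with 562 bp and 15.5% in cKO with 681 bp. The other 3 had fl peaks of exactly 301 bp and much wider cKO peaks. Ccne2 measured 1179 bp in cKO, E2f1 1009 bp and Cdc25a 665 bp. E2f1 had a second cKO peak of 538 bp at its 3′ end. E2f2 had H3K27ac in cKO alone, with a width of 827 bp, a fold of 10.7 and a place 43.5% from the top, and the nearest fl peak lay 114496 bp away. Ccne1 also had it in cKO alone, 1187 bp wide with a fold of 9.05 and 45.4% from the top, and the nearest fl peak lay 12792 bp away. E2f3 had none at a gene end and a cKO peak of 883 bp at a listed start.

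Over the 24 genes with H3K27ac in both lists, the cKO peak was the wider at 24 of 24. The median width was 402 bp in fl (303 to 463) and 556 bp in cKO (487 to 676), and the median difference was 144 bp (102 to 184, 95% order-statistic intervals over genes, which are not replicates). All 4711 genes with the mark in both lists had a median difference of 167 bp, and 94.1% were wider in cKO, which lies close to the values of the replication genes. The 5 largest differences were at Ccne2 (878 bp), E2f1 (708 bp), Cdc25a (364 bp), Pole (239 bp) and Gins2 (222 bp). The 5 smallest were at Cdc7 (16 bp), Pold2 (18 bp), Rrm2 (41 bp), Orc2 (43 bp) and Orc5 (61 bp). A width of 301 bp was the narrowest in the fl list, shared by 1362 of its peaks (13.0%) and by 6 of the 24 genes, so the fl width of those 6 cannot be read below that floor. The median width over the whole list was 421 bp in fl and 513 bp in cKO.

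**Figure D2:**
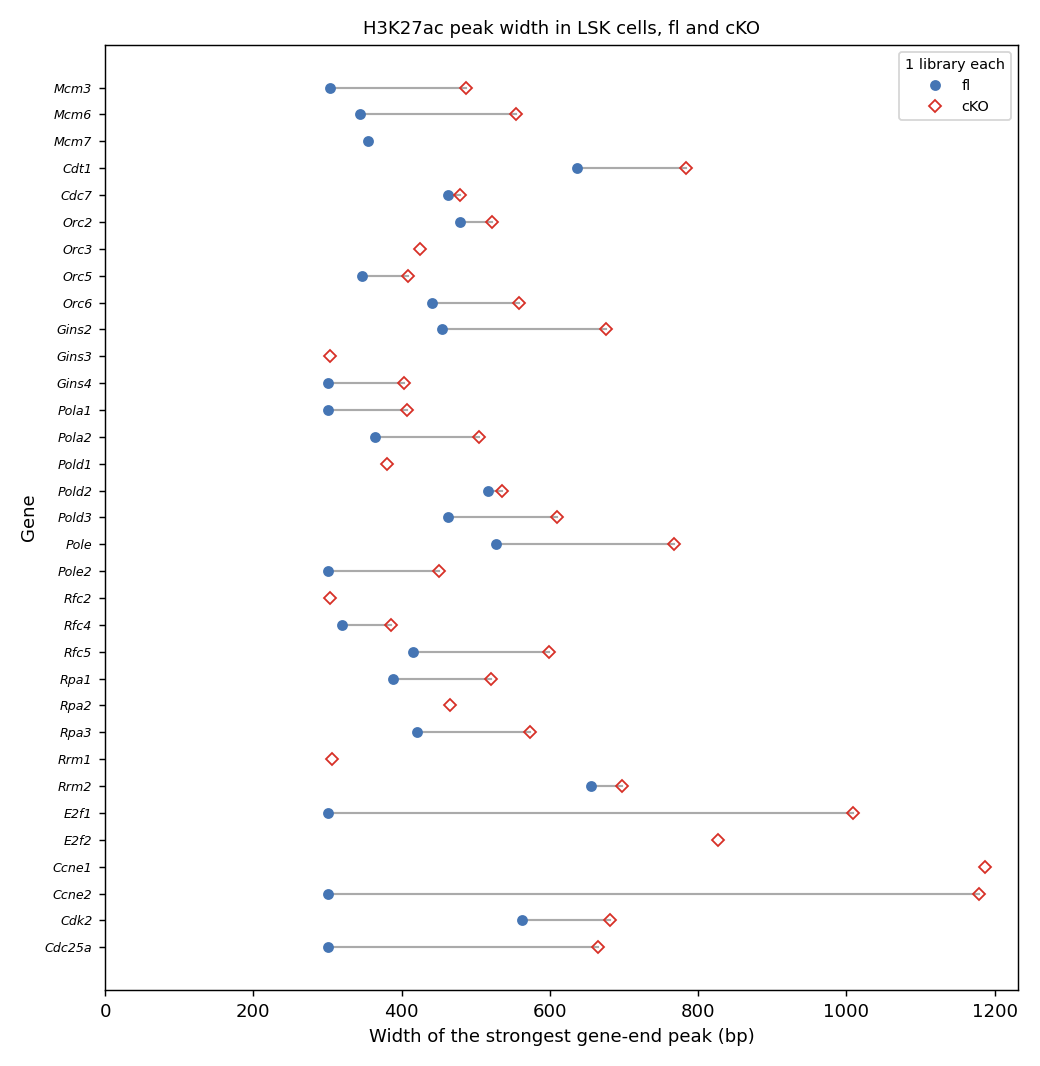
Width in bp of the strongest H3K27ac gene-end peak (horizontal axis) at each gene with a peak in either list (rows), 1 library each for fl (filled circles) and cKO (open diamonds), joined by a line where both exist. Every joined pair has the cKO point to the right, by 16 bp at Cdc7 and by 878 bp at Ccne2.

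The H3K4me3 widths differed in both directions. Of 42 genes with the mark in both lists, 15 had the wider peak in cKO and 27 the narrower. The median difference was −38 bp (−104 to 5), beside −39 bp over all 8993 shared genes, of which 35.4% were wider in cKO. The 5 genes with the largest narrowing were Mcm6, Mcm5, Rrm2, Ccne1 and Pold3 (976 to 669 bp), and the 5 with the largest widening were Rrm1, E2f1, Rpa2, Rfc2 and Prim2 (608 to 726 bp). E2f1, Rpa2, Rfc2 and Rrm1 were thus wider for H3K4me3 in cKO and also had wider H3K27ac there or H3K27ac there alone. Pold3, Rrm2, Mcm6 and Ccne1 combined a narrower H3K4me3 peak with wider or cKO-only H3K27ac. Since H3K27ac was wider in cKO at all 24 genes with it in both lists, this split follows the sign of the H3K4me3 difference alone. Rpa2, Rfc2, Rrm1 and Ccne1 had no fl H3K27ac peak, so they have no H3K27ac width difference.

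**Figure D3:**
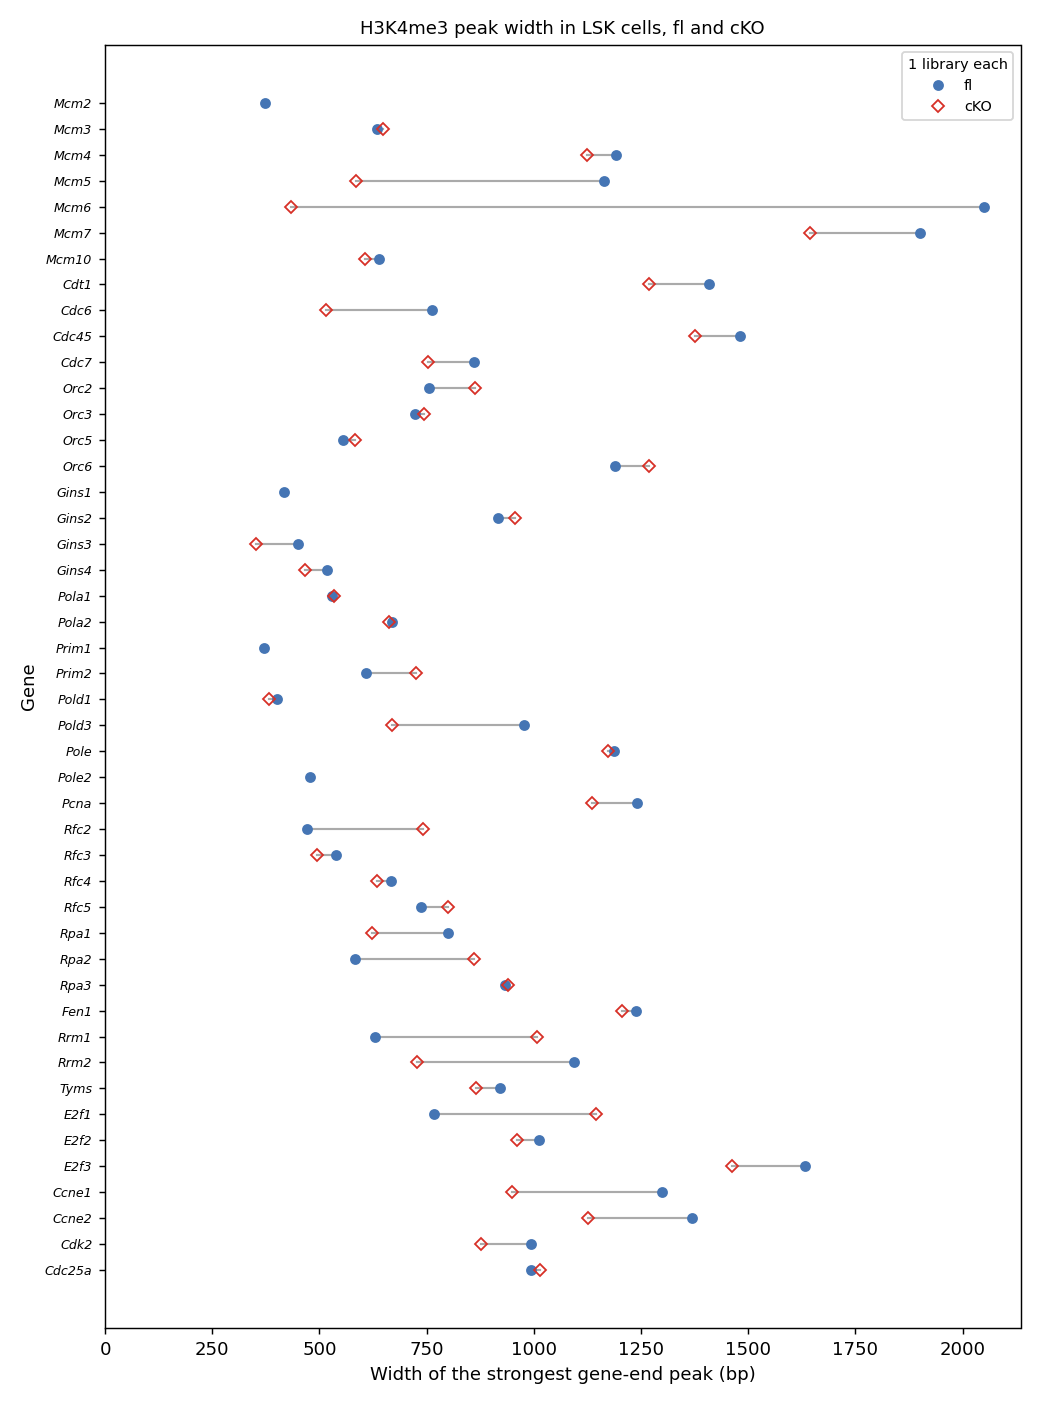
Width in bp of the strongest H3K4me3 gene-end peak at the 46 genes with one in either list, 1 library each for fl (filled circles) and cKO (open diamonds). Mcm6 has the longest line, from 2050 to 433 bp, and Mcm2, Gins1, Prim1 and Pole2 have an fl point alone.

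Summits were read against the nearest start listed in RefSeq, which 43 of the 51 genes have. Within 1 kb of such a start, H3K4me3 lay at 42 of the 43 genes in fl and 39 in cKO, against 47.0% and 45.9% of all 17492 genes with a listed start. H3K27ac lay there at 23 and 31, against 23.6% and 44.7%. The median summit of H3K4me3 lay 149 bp into the gene in fl (31 to 225, n = 42 genes) and 187 bp in cKO (28 to 239, n = 39). Over all genes the medians were 172 and 170 bp. For H3K27ac the medians were 67 bp in fl (−25 to 144, n = 23) and 19 bp in cKO (−36 to 140, n = 31), where all genes had 83 and 95 bp. The intervals of fl and cKO overlapped for both marks. The H3K27ac peak covered the start itself at 18 of the 23 fl genes and at 27 of the 31 cKO genes. E2f1 had its H3K27ac summit far before the start, at −597 bp in fl and −601 bp in cKO (negative values lie before the start). Its H3K4me3 summits lay at −17 and −76 bp. E2f2 had its cKO H3K27ac summit about as far away on the other side, 599 bp into the gene.

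**Figure D4:**
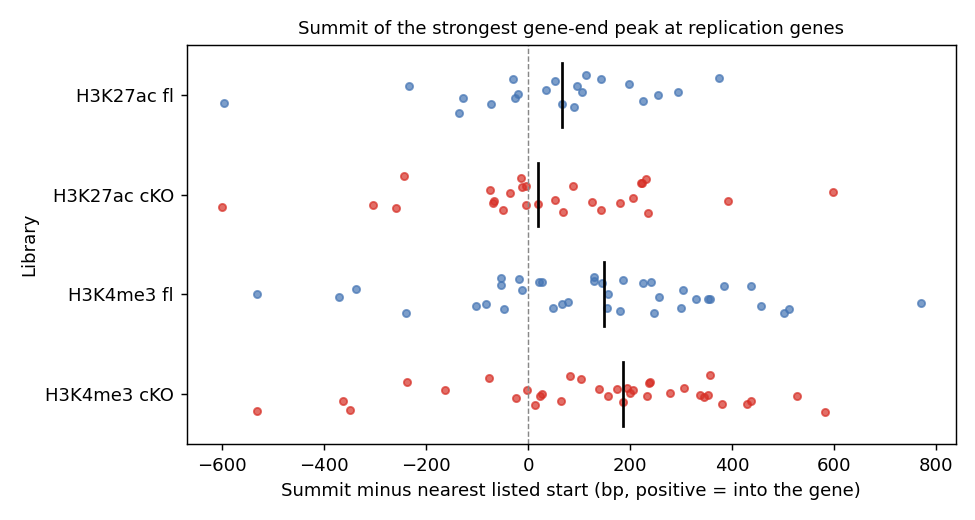
Distance in bp from the listed start to the summit of the strongest gene-end peak, with positive values into the gene, for each gene with a listed start and a gene-end peak (points) in the 4 LSK libraries (rows), with the median as a black line. These are fewer genes than those with a peak at any listed start: the medians are 67 bp (21 genes) in H3K27ac fl, 19 bp (27) in H3K27ac cKO, 149.5 bp (38) in H3K4me3 fl and 187 bp (35) in H3K4me3 cKO.

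A window at a gene end can hold the promoter of a neighbour. Another protein-coding gene ended within 1 kb of a listed start at 13 of the 43 genes (30.2%), against 14.1% of all 17492 genes with a listed start. They were Mcm7 beside Ap4m1, Cdc45 beside Ufd1, Orc1 beside Prpf38a, Orc3 beside Rars2, Orc4 beside Mbd5 and Orc6 beside Vps35. The others were Pold1 beside Nr1h2, Pole2 beside Klhdc1, Pcna beside Cds2, Rpa1 beside Smyd4, Rpa3 beside Umad1, Fen1 beside Tmem258 and Lig1 beside Zswim9. A peak there cannot be given to either gene of the pair. That holds for the high H3K4me3 places of Orc6, Orc3, Pcna and Mcm7. Of the 8 cKO-only H3K27ac genes, Orc3 and Pold1 had such a neighbour, and Rpa2, Rrm1, Gins3, E2f2 and Ccne1 did not. Rfc2 had no listed start.

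Motifs were searched on both strands of the 250 bases before each listed start, and a match is a description of the letters, not evidence of binding. The E2F motif TTTNNCGC was present at 12 of 43 replication genes (27.9%), against 5.93% of all 17492 genes with a listed start. Among the 8221 genes with an fl H3K4me3 peak at a listed start, 9.10% had it. The NF-Y motif CCAAT was present at 27 (62.8%), against 39.5% and 40.9%. Both were present at 10 (23.3%), against 2.28% and 3.48%. Of 46 other replication genes with a listed start (from the set described below), 19.6% had the E2F motif, 50.0% the NF-Y motif and 8.7% both. The GC box GGGCGG was present at 33 of the 43 (76.7%), against 45.8% of all genes with a listed start and 68.4% of those with H3K4me3. The E-box CACGTG was at 7 (16.3%), against 7.61% of all and 10.5% of those with H3K4me3. The CHR element TTTGAA was at 8 (18.6%), against 16.9% and 11.9%. The TATA box TATAAA was at 3 (6.98%), against 13.7% of all but a similar 6.79% of those with H3K4me3. E2F sites and CCAAT boxes are long known from promoters of this gene class, and these counts describe the reference sequence, not the cells.

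The 12 genes with an E2F match were Mcm5, Mcm6, Mcm7, Cdc6, Orc1, Orc3, Gins3, Pola1, Rfc3, E2f3, Cdk2 and Cdc25a. In Mcm5 the 2 matches overlap on opposite strands, as 2 of the 3 in Mcm6 do. Over the genes the 15 E2F matches lay 3 to 158 bases before the start, with a median of 99, and the 46 NF-Y matches lay 5 to 244 bases before it, with a median of 68. By H3K27ac class, E2F matches were present at 4 of 20 genes with the mark in both lists, 2 of 7 with it in cKO alone, 1 of 1 in fl alone and 5 of 15 with it in neither.

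**Figure D5:**
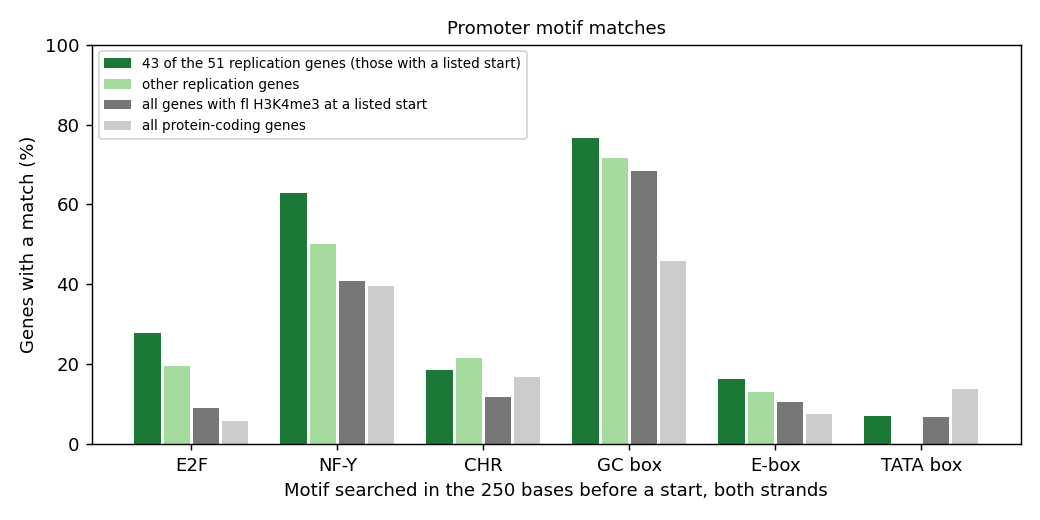
Percentage of genes with a match to each of 6 motifs in the 250 bases before a start (vertical axis from 0 to 100), for the 43 replication genes with a listed start, other replication genes, genes with an fl H3K4me3 peak at a start, and all protein-coding genes. The E2F bar of the 43 genes is at 27.9%, beside 19.6% for other replication genes and 9.10% for genes with H3K4me3.

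A further 60 genes of replication, nucleotide supply, chromatin assembly and the E2F circuit were read in the same way. H3K4me3 lay at 57 in fl and 56 in cKO (all genes 43.8% and 42.7%), with Mcm8, a helicase relative used in repair, in fl alone (724 bp, −log10 q 16.3). H3K27ac lay at 35 in fl (58.3%) and at 48 in cKO (80.0%), against 21.9% and 42.5% of all genes. It lay in cKO alone at 13 (21.7%), a share close to the 20.9% of all genes, and in fl alone at 0, against 0.384%. The strongest of the cKO-only genes was Donson, a replisome factor, with a fold of 12.2 and a place 17.7% from the top. Mybl2 (B-Myb, a partner of the MuvB complex) stood at 38.7%, E2f5 at 40.5% and the checkpoint scaffold Topbp1 at 48.2%. The histone chaperone gene Asf1a stood at 54.2%, Chtf8 at 56.5%, Dctpp1 at 56.5%, the MuvB gene Lin9 at 58.0% and the E2F partner gene Tfdp1 at 60.3%. The median width difference at the 35 shared genes was 162 bp, with 34 wider in cKO.

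Among these genes, DEK gene-end peaks were listed at Wdhd1, Tk1 and E2f8. Wdhd1, a link between helicase and polymerase alpha, had 1 in replicate 2 (47240339 to 47240683 on chromosome 14, fold 5.29) and 1 in replicate 3 (47240004 to 47240249, fold 3.58), which do not overlap. Tk1, the thymidine kinase gene, had 1 in replicate 2 (fold 7.24) and E2f8 had 1 in replicate 3 (fold 3.58). The Tk1 peak overlapped an fl H3K9ac peak of 195 bp. H3K9ac was also listed at Ticrr in fl (fold 2.91) and at Chtf18 in cKO (fold 5.06).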

How the data were processed

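CUT&Tag was profiled in 9 libraries of 7 groups, taken from the labels. The submitters' processing notes name Bowtie2, Picard, MACS2 and the mm10 build. For their versions, the calling threshold and any control track, the entry is: not given in the sources used. The authors deposited a separate narrowPeak list for each of the libraries, with replicates not pooled. In these deposited lists a score equals −log10 p times 10, without decimals. Fold enrichment, as deposited, is a ratio over the local background of the caller. Each −log10 p-value and −log10 q-value was computed by the authors. These were used only to rank, filter or describe peaks within a list, since heights of libraries of unknown depth cannot be compared. Position is the rank by −log10 p as a percentage of the list, and tied peaks all take the best place of their tie. The row names of DEK replicate 3 carry a Flag stem, and the label, which calls it DEK, was followed. In the DEK lists 16 peaks outside chromosomes 1 to 19, X and Y and 11 rows that break the format were left out, a rule made with those rows known.

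Gene spans and the listed starts of 43 of the 51 genes came from RefSeq for GRCm38.p6. Where a gene had several peaks, the one with the highest −log10 p was used. Medians carry binomial order-statistic 95% intervals over genes. The members (listed by function), the other lists and the comparisons were chosen with earlier results of these data known. Named genes were those with a mark in 1 genotype or in neither, the widest and narrowest fl H3K4me3 per role, the 5 highest H3K27ac places per list, the 5 largest and smallest width differences, and, of the other genes, up to 10. No test was made, since each mark had 1 library per genotype. Alternatives were other windows, a q threshold, lists of equal length and other overlap rules. Python 3.11.15, pandas 2.3.3, numpy 2.4.6, scipy 1.17.1 and matplotlib 3.10.9 were used, and the assignment of peaks and motifs was tested on simulated data. The DEK count over the 60 other genes is not reported here.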

Additional observations from a re-analysis of the deposited data

How the results depend on the processing

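Of 177 alternative values for 27 results, 161 stayed close to the value given above and 16 did not. Close means within 1.5 times for a count and within the 95% interval for a median. A reversal was possible only for the median width differences of H3K27ac and H3K4me3, and neither changed sign. With both H3K27ac lists at 10494 peaks, the cKO-only genes numbered 5 (Ccne1, E2f2, Orc3, Pold1 and Rpa2) in place of 8 and the fl-only genes 4 (Gins2, Mcm7, Orc6 and Pola1) in place of 1, while over all genes 11.0% were then cKO only and 1.93% fl only. The median cKO place of the shared genes became 54.0% from the top, and 1 of the 60 other genes became fl only. With a 500 bp window the fl-only count was 0, since Mcm7 was lost. H3K9ac in cKO alone was at 0 genes with a −log10 q of at least 5 or with equal lists, and at 3 when whole spans counted, with 1 in fl alone. Whole spans gave 4 genes with DEK in any library and 1 (Prim2, at different places) in at least 2, for which no share over all genes was counted. Leaving out a DEK replicate could not change the gene-end count, which was 0 in each library. Those values, counted as close, therefore show no stability. The 60 other genes had 1 with H3K4me3 in cKO alone with a 500 bp window or at listed starts. In the 100 bases before the start the E2F motif was at 7 genes, CHR at 4 and TATA at 0. When listed starts were added to gene ends, an alternative chosen after seeing the data, H3K4me3 was in both lists at 46 genes and in neither at 1 (Pold2), and H3K27ac in cKO alone at 10 (E2f3 and Lig1 added). No paired analysis was possible because each mark had 1 library per genotype. The lists give no depth, so a missing peak does not show that a mark is absent.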
